A study of Mus musculus with 12 samples.

Results

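The D cyclins, their kinase partners, the inhibitors of those kinases and the retinoblastoma gene were followed in mouse CD8 T cells before and after activation, with and without Scap. The members were named genes, namely Ccnd2, Ccnd3, Cdk4, Cdk6, Cdkn1a, Cdkn1b, Cdkn2c, Cdkn2d and Rb1, and every probe set whose only annotated gene symbol was one of them was taken. This gave 24 of the 45037 probe sets that are no control, for 9 of 18193 genes, and all 24 probe sets and all 9 genes passed the filter on low values. Ccnd2 had 7 probe sets, Ccnd3, Cdk4 and Cdk6 had 3 each, Cdkn1a, Cdkn1b and Rb1 had 2 each, and Cdkn2c and Cdkn2d had 1 each.

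The study profiled CD8 T cells purified with an enrichment kit from spleens of male mice on 12 expression arrays, 3 biological replicates in each of 4 groups. KO T6 cells came from Cd4-Cre/Scapfl/fl mice and had been activated for 6 h with plate-bound antibody to CD3 and soluble antibody to CD28, and KO T0 cells were quiescent cells of that genotype. WT T6 and WT T0 cells were the activated and quiescent cells of Cd4-Cre/Scap+/+ littermates, so both genotypes carried the Cre. Cre under the Cd4 promoter acts from the thymic stage at which both coreceptors are present, so the deletion is not limited to CD8 T cells. Scap encodes the escort protein that carries SREBP transcription factors out of the endoplasmic reticulum.

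As background, a resting T cell leaves quiescence when D cyclins bind and activate CDK4 or CDK6. The active kinases phosphorylate the retinoblastoma protein, which then releases E2F factors that drive S phase genes. Inhibitors of the INK4 family, among them the products of Cdkn2c (p18) and Cdkn2d (p19), bind CDK4 and CDK6 themselves. Inhibitors of the Cip/Kip family, p21 from Cdkn1a and p27 from Cdkn1b, bind cyclin and kinase complexes. Cyclin D2, cyclin D3 and CDK6 are the forms best known from lymphocytes, and p27 is the inhibitor best known for holding T cells at rest, with much of its control at the level of the protein.

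RefSeq promoter sequences (build GRCm38.p6) were on hand for 7 of the 9 genes, with 10 annotated starts. The 250 bases before each start were searched on both strands for the E-box CACGTG and the GC box GGGCGG, among other short motifs. Cdk4 is shown because its window held 4 E-boxes, the site of MYC with MAX, and 7 of 32851 promoter windows held at least 4 (0.0213%), while 6.02% held at least 1. Cdkn1a is shown because it was the member that changed most, and the window before its downstream start held 2 GC boxes, the site of SP1, where 32.7% of windows held at least 1. The window before its upstream start held 0, and 6 of the 7 genes had a GC box before at least 1 start. Both printed windows lie on the plus strand, Cdk4 at chr10:127063285-127063534 and Cdkn1a at chr17:29093519-29093768, and the capitals mark the E-boxes in Cdk4 and the GC boxes in Cdkn1a. A match is a string of letters and not a measured binding site.
Cdk4: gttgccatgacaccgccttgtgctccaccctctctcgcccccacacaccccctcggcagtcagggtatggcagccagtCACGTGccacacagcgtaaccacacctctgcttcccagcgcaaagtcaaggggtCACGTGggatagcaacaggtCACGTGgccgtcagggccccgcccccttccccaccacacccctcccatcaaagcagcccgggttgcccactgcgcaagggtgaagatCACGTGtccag
Cdkn1a: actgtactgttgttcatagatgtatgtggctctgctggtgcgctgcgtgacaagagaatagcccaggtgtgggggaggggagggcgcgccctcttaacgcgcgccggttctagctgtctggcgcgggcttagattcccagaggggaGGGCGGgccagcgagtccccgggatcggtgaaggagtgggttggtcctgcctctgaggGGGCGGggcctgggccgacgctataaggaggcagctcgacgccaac
Of the other motifs searched, the AP-1 site TGACTCA, the CRE TGACGTCA and the E2F words TTTGGCGC, TTTCCCGC, TTTGCCGC and TTTCGCGC were found before 0 of these starts. The FOXO word TGTTTAC was found before 1 start of Ccnd3 (3.17% of all windows) and the TATA box TATAAA before Cdk6 (12.4% of all windows). The Cdk6 window also held 1 E-box.

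Values are linear signal intensities of probe sets, and no signal was 0. Their trimmed mean was 499.8 to 499.9 on each array, so the deposited values had been scaled to a common level. The medians per array ran from 61.3 to 76.2. The labels call the arrays biological replicates without naming a mouse for each, so p-values measure the spread between these samples. The T cell gene Cd3d had signals of 13242 to 27539 on the 12 arrays. Of the CD4 T cell markers, Cd4 did not pass the filter, while Zbtb7b and Foxp3 did, at mean log2 levels of 6.44 and 5.97. Between KO and WT, Zbtb7b differed by 1.19 at T0 and 0.18 at T6 on the log2 scale. Foxp3 differed by -0.01 at T0 and 0.68 at T6, and none of these was called. Scap, the targeted gene, had signals of 2193, 2117 and 2227 in KO T6 cells, against 3004, 2987 and 3079 in WT T6 cells. At T0 it had 2459, 1805 and 1933 in KO cells, against 2937, 2074 and 2380 in WT cells, so the genotypes overlapped at T0 and not at T6. It differed by -0.47 at T6 (SE 0.14, limma adjusted p = 0.273) and by -0.25 at T0 (SE 0.14, adjusted p = 0.593) between KO and WT on the log2 scale, and neither was called. Whether its probe set lies in the deleted part was not analysed here. Erythroid markers were highest on the KO arrays of replicate number 2, though high KO arrays were not limited to that number. The 5 of 9 erythroid markers that could be tested (Alas2, Klf1, Ermap, Slc4a1 and Epor) had a mean log2 signal of 12.25 on KO T6 replicate 2 and 12.09 on KO T0 replicate 2. On the other KO arrays the mean was 8.98 to 11.19, and on the WT arrays it was 8.43 to 9.08. KO replicate 1, with 10.09 at T6 and 11.19 at T0, and KO T0 replicate 3, with 9.50, also lay above all WT arrays. Leaving out number 2 therefore does not remove the higher erythroid level of KO. Hba-a1 did not pass the filter, and the other 3 erythroid genes listed had no probe set with their symbol alone. Proliferation genes followed the same arrays, with a mean log2 signal over 16 genes of 11.57 on KO T6 replicate 2 and 11.60 on KO T0 replicate 2, against 9.78 to 10.72 on the WT arrays. On the other KO arrays it was 10.20 to 11.04. Over 12 early activation genes the mean was 11.92 on KO T6 replicate 2, against 12.22 to 12.34 on the other T6 arrays. In bulk samples, fewer cells of a type and less RNA per cell cannot be told apart.

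**Figure D1:**
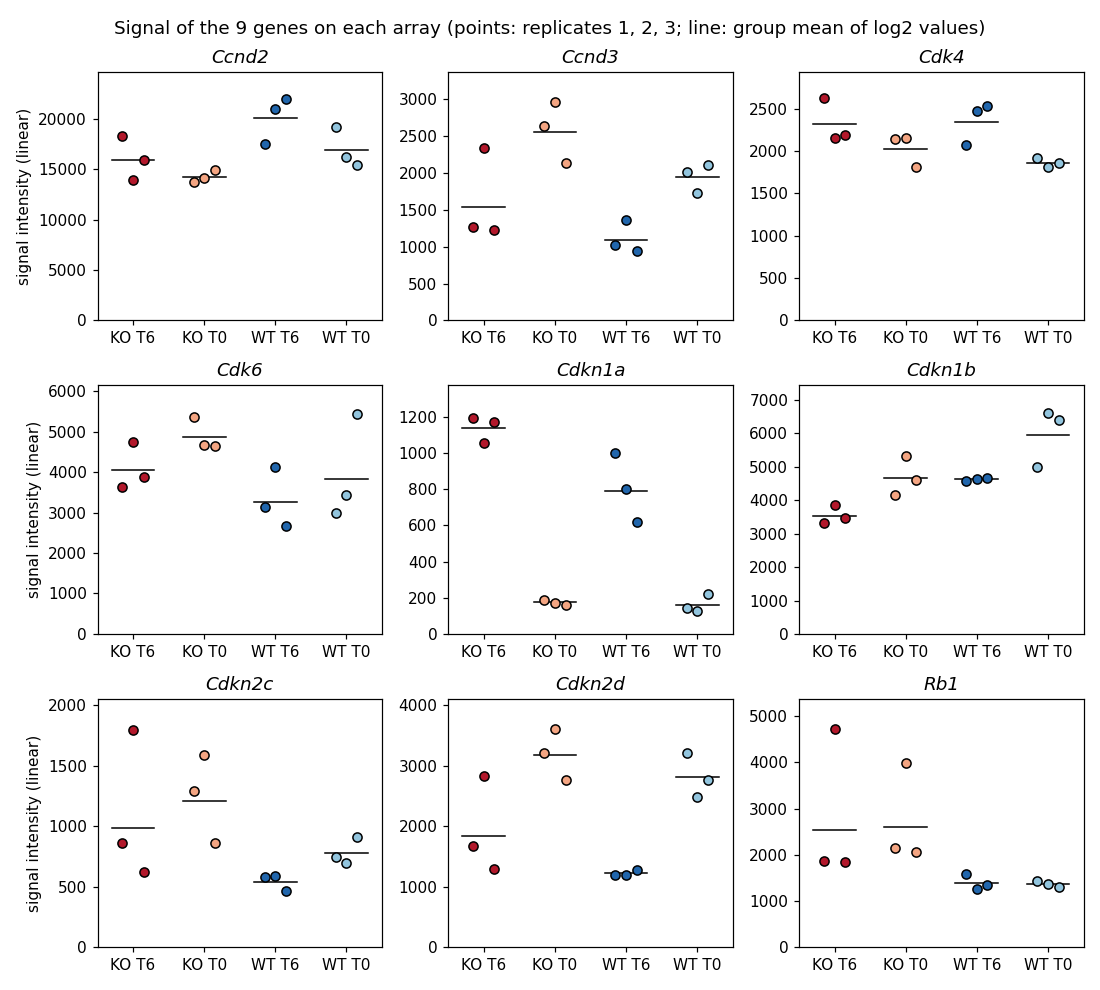
Linear signal intensity (vertical axis, from 0) of the probe set that represents each of the 9 genes, on each array of the groups KO T6, KO T0, WT T6 and WT T0; points are replicates 1 to 3 from left to right and lines are group means taken on the log2 scale. Cdkn1a is high in both T6 groups, Cdkn2d is low in WT T6, and replicate 2 is the highest KO point for Rb1 and Cdkn2c at both times.

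Activation was examined as T6 against T0 within each genotype. Of the 9 genes, Cdkn1a rose and Cdkn2d fell in KO cells, and Cdkn1a rose and Cdkn2d and Ccnd3 fell in WT cells. The test was limma's linear model over all 12 arrays on log2(signal + 16), with p-values adjusted by Benjamini-Hochberg over 13158 genes and a call below 0.05. Over all genes 20.9% were called in KO and 25.1% in WT, so counts of 2 of 9 in KO and 3 of 9 in WT are near the background. Rises made up 10.4% and falls 10.4% of all genes in KO, against 1 rise and 1 fall among the 9. In WT rises made up 11.3% and falls 13.8%, against 1 rise and 2 falls. The T6 arrays lay wholly above the T0 arrays for 1 of the 9 genes in KO (18.9% of all genes) and 2 in WT (19.2%), and wholly below for 1 in KO (17.6%) and 4 in WT (23.6%). The median log2 difference of the 9 genes was -0.27 in KO, against 0.00 over all genes, and -0.23 in WT, against -0.06 over all genes.

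Among the Cip/Kip inhibitors, Cdkn1a had signals of 1195, 1057 and 1173 in KO T6 cells, against 189.3, 172.0 and 162.5 in KO T0 cells. In WT T6 cells the signals were 1002, 801.3 and 616.9, against 142.3, 127.8 and 219.3 in WT T0 cells. Every T6 array lay above every T0 array in both genotypes. It rose by 2.60 on the log2 scale in KO (SE 0.20, limma adjusted p = 2.48e-05) and by 2.21 in WT (SE 0.20, adjusted p = 5.53e-05), and the call was kept in all 24 alternatives in each genotype. Its other probe set had 394.2 to 477.9 in KO T6, against 8.0 to 18.0 in KO T0, and 209.4 to 348.1 in WT T6, against 7.6 to 38.5 in WT T0, and was also called in both. Those T0 signals lay below percentile 40 of their arrays, so the fitted differences of 4.04 in KO and 3.21 in WT depend on the added 16. This probe set passed the filter through its T6 arrays alone, so its call is no separate support for the rise.

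Cdkn1b, the p27 gene, had signals of 3313, 3848 and 3461 in KO T6 cells, against 4167, 5326 and 4622 in KO T0 cells. In WT cells it had 4590, 4633 and 4667 at T6, against 5005, 6599 and 6413 at T0. The T6 arrays lay below the T0 arrays in both genotypes with no overlap. On the log2 scale it differed by -0.40 in KO (SE 0.13, limma adjusted p = 0.0514) and -0.36 in WT (SE 0.13, adjusted p = 0.0666), so it missed the threshold in both. It passed in 9 of 24 alternatives in KO (adjusted p = 0.0175 to 0.153), among them without KO T6 replicate 2, KO T0 replicate 1 or WT T0 replicate 1. With replicate number as a fixed block it passed in KO (adjusted p = 0.047), as it did with a random block (adjusted p = 0.0262). In WT it passed in 4 of 24 (adjusted p = 0.0209 to 0.217), among them without WT T0 replicate 1. Its second probe set stood at -0.51 in KO and -0.24 in WT.

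Of the INK4 inhibitors, Cdkn2d had signals of 1193, 1202 and 1279 in WT T6 cells, against 3217, 2492 and 2764 in WT T0 cells. The groups did not overlap, and the log2 difference was -1.19 (SE 0.24, limma adjusted p = 0.0055), a call kept in all 23 alternatives. In KO T6 cells the signals were 1683, 2840 and 1295, against 3213, 3612 and 2768 in KO T0 cells, so KO T6 replicate 2 reached the T0 range. The KO difference was -0.79 (SE 0.24, adjusted p = 0.0428). That call was kept in 9 of 23 alternatives (adjusted p = 0.0018 to 0.141). It was lost when any array but KO T6 replicate 2 was left out, and the difference was -1.01 (adjusted p = 0.0058) without both KO arrays of number 2.

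Cdkn2c had signals of 582.2, 590.5 and 464.9 in WT T6 cells, against 742.0, 700.4 and 908.7 in WT T0 cells. These groups did not overlap, and the log2 difference of -0.51 (SE 0.35, limma adjusted p = 0.331) was not called. The fit shares 1 estimate of the spread over the 4 groups, so this SE is not that of WT alone. The SD of the log2 signals was 0.19 in WT T6 and in WT T0, against 0.77 in KO T6 and 0.45 in KO T0. Without both KO arrays of number 2 the WT adjusted p was 0.0964. In KO T6 cells the signals were 858.3, 1798 and 620.7, against 1291, 1588 and 858.4 in KO T0 cells, with overlap. The KO difference was -0.29 (SE 0.35, adjusted p = 0.625), and its SE was the largest but for Rb1 among the 9 genes.

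Of the D cyclins, Ccnd3 had signals of 1019, 1357 and 934.9 in WT T6 cells, against 2020, 1728 and 2106 in WT T0 cells, with no overlap. It fell by 0.83 on the log2 scale (SE 0.25, limma adjusted p = 0.0339), a call kept in 17 of 24 alternatives and lost without WT T6 replicate 1 or 3 or any of the 3 WT T0 replicates (adjusted p up to 0.108). In KO T6 cells it had 1272, 2346 and 1228, against 2638, 2964 and 2136 in KO T0 cells. The KO difference of -0.72 (SE 0.25, adjusted p = 0.0656) was not called, and without KO T6 replicate 2 it was -1.02 (adjusted p = 0.0052). With replicate number as a random block Ccnd3 passed in KO (adjusted p = 0.0362), and with a fixed block it did not.

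A second Ccnd3 probe set of high signal gave another order of the KO arrays. It had signals of 782.2, 598.8 and 853.5 in KO T6 cells, against 1489, 1308 and 1485 in KO T0 cells, so replicate 2 was the lowest in both groups here and the highest in both on the probe set above. In WT cells it had 777.3, 1106 and 1221 at T6, against 1452, 1728 and 1612 at T0. Tested apart among 30083 probe sets, it fell by 0.94 in KO (SE 0.18, limma adjusted p = 0.0059) and by 0.64 in WT (SE 0.18, adjusted p = 0.032). The remaining Ccnd3 probe set had signals of 34.9 to 205.1 and was not called. Where each probe set lies on the transcripts was not analysed here.

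**Figure D2:**
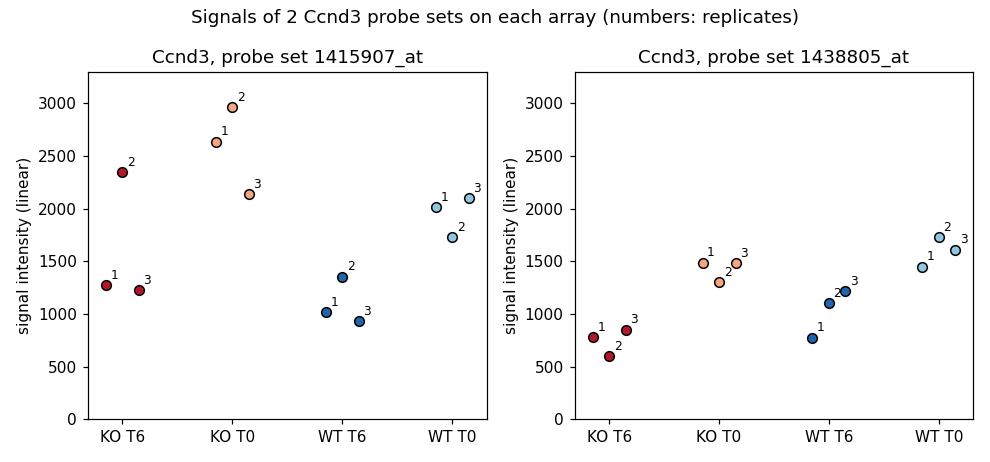
Linear signal intensity (vertical axis, from 0) of 2 Ccnd3 probe sets on each array of the groups KO T6, KO T0, WT T6 and WT T0, with replicate numbers beside the points. Both probe sets are lower at T6 than at T0 in WT, while replicate 2 is the highest KO T6 point on the left (2346) and the lowest on the right (598.8).

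Ccnd2 was the other D cyclin among the members, with signals of 18308, 13971 and 15958 in KO T6 cells, against 13735, 14128 and 14944 in KO T0 cells. In WT cells it had 17543, 20972 and 22037 at T6, against 19204, 16229 and 15476 at T0. On this probe set, which represents the gene, T6 and T0 overlapped in both genotypes. The log2 difference was 0.16 in KO (SE 0.13, limma adjusted p = 0.443) and 0.25 in WT (SE 0.13, adjusted p = 0.209). The 95% intervals ran from -0.13 to 0.46 in KO and from -0.05 to 0.55 in WT. Of its 7 probe sets 6 were positive in each genotype and 0 were called, with values of -0.67 to 0.32 in KO and -0.02 to 0.53 in WT. On most of the other probe sets the WT T6 arrays lay above the WT T0 arrays with no overlap, at differences of 0.34 to 0.53. Of all genes 19.2% did so, and the share over all probe sets was not counted. Probe sets of 1 gene on the same arrays are not independent of each other.

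Of the kinases, Cdk4 had signals of 2626, 2150 and 2194 in KO T6 cells, against 2138, 2156 and 1809 in KO T0 cells. In WT cells it had 2076, 2467 and 2528 at T6, against 1918, 1809 and 1859 at T0, with no overlap. The log2 difference was 0.19 in KO (SE 0.12, limma adjusted p = 0.308) and 0.33 in WT (SE 0.12, adjusted p = 0.0659), so neither passed, and in WT 4 of 24 alternatives did (adjusted p = 0.0396 to 0.188). Without WT T6 replicate 1 the WT difference was 0.42 (adjusted p = 0.0446). All 3 Cdk4 probe sets were positive in both genotypes, at 0.09 to 0.19 in KO and 0.20 to 0.33 in WT.

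Cdk6 had signals of 3621, 4743 and 3873 in KO T6 cells, against 5358, 4678 and 4634 in KO T0 cells. In WT cells it had 3148, 4136 and 2676 at T6, against 2984, 3444 and 5447 at T0, where replicate 3 stood above the others. The log2 difference was -0.27 in KO (95% interval -0.78 to 0.24) and -0.23 in WT (-0.74 to 0.28), with limma adjusted p = 0.47 and 0.525. The dimmest Cdk6 probe set was called lower in WT when tested apart (-0.87, adjusted p = 0.04), and its signals there were 29.2 to 51.1 at T6, against 54.1 to 99.8 at T0.

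Rb1, the substrate of these kinases, did not differ with activation beyond the spread that the fit shares over the 4 groups. Its log2 difference was -0.04 in KO (95% interval -0.82 to 0.75, limma adjusted p = 0.961) and 0.03 in WT (-0.76 to 0.81, adjusted p = 0.968). The SD of the log2 signals was 0.17 in WT T6 and 0.07 in WT T0, against 0.77 in KO T6 and 0.53 in KO T0. The WT interval is therefore wider than the WT arrays alone would give. The second Rb1 probe set had signals of 7.7 to 73.6 and lay above percentile 40 on 3 of 12 arrays.

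**Figure D3:**
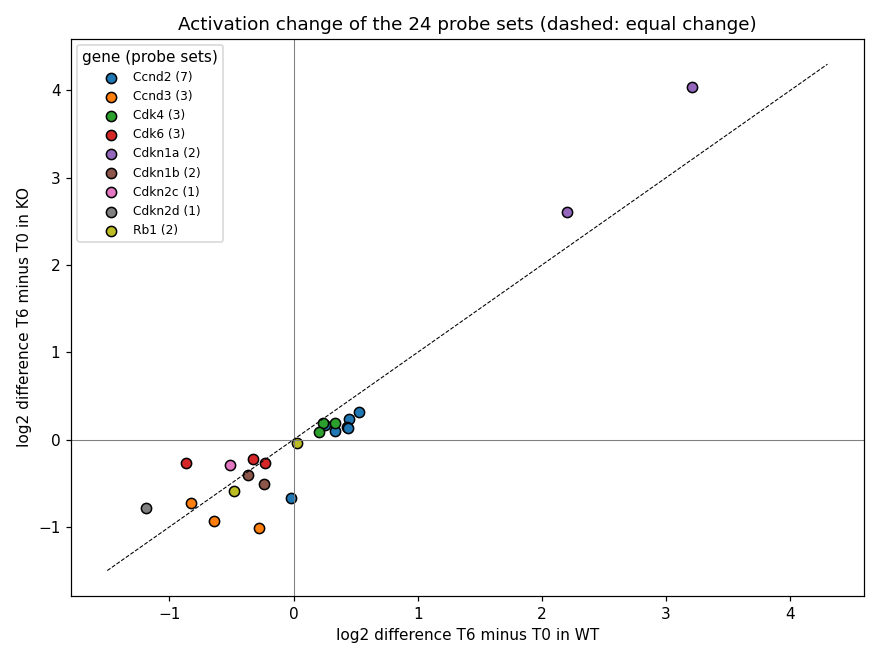
Log2 difference T6 minus T0 of each of the 24 probe sets in WT (horizontal axis) and KO (vertical axis), coloured by gene, with a dashed line where both are equal. The 2 Cdkn1a probe sets stand above 2 on both axes, and all Ccnd3, Cdk6, Cdkn1b, Cdkn2c and Cdkn2d probe sets are below 0 on both.

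By probe set, 2 rose and 2 fell in KO among the 24 (18.5% of 30083 probe sets were called), and 2 rose and 4 fell in WT (20.6%). The risers in both genotypes were the 2 Cdkn1a probe sets, the dimmer of which passed the filter through its T6 arrays alone. Those that fell were Cdkn2d and the second Ccnd3 probe set in KO, and in WT these with the Ccnd3 probe set that represents the gene and the dim Cdk6 probe set.

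Other genes of entry into G1 and S phase were taken as a list of 48, of which 46 could be tested. In KO 5 rose and 3 fell on activation, where 20.9% of all genes were called, with a median of -0.09, against 0.00 over all genes. In WT 4 rose and 3 fell, where 25.1% of all genes were called, with a median of -0.20, against -0.06. Both counts are below the share over all genes, so the genes named next are single calls and describe no shift of the list. Myc, a transcription factor that promotes cell growth, rose by 1.27 in KO (SE 0.13, limma adjusted p = 1.23e-04) and by 1.38 in WT (SE 0.13, adjusted p = 5.53e-05). Foxo1, a transcription factor that promotes quiescence, fell by 0.91 in KO (SE 0.11, adjusted p = 4.39e-04) and by 1.25 in WT (SE 0.11, adjusted p = 5.37e-05). Cdk3, a CDK family gene, rose by 0.73 in KO and by 0.70 in WT, at a mean log2 level of 6.66 near the filter. Ccnd1, another D cyclin gene, differed by -1.15 in KO (SE 0.31, adjusted p = 0.0253) and by -1.44 in WT (SE 0.31, adjusted p = 0.00767), falls at a mean log2 level of 7.45. Cables1, which encodes a CDK binding protein, rose by 2.06 in KO (SE 0.49, adjusted p = 0.0146) and by 1.93 in WT (SE 0.49, adjusted p = 0.0176). The remaining calls, named after their values were seen, were rises of Fbxw7 in both genotypes and of E2f5 in KO, and a fall of Rbl2, a relative of Rb1, in both.

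The markers of other cells also moved with activation. Of 12 tested myeloid markers 9 fell in KO and 10 in WT. Their summed signal was 10238 to 12724 in KO T6, against 30303 to 36564 in KO T0, and 8856 to 10402 in WT T6, against 23283 to 29555 in WT T0. B cell markers were called lower in 0 of 12 cases in KO and 4 in WT. In each genotype 11 of the 12 were negative, with medians of -0.70 in KO and -0.93 in WT. No proliferation gene was called by limma on activation, with medians of -0.42 in KO and -0.39 in WT. The 3' minus 5' log2 difference of the Actb control, a sign of RNA quality, was 0.62 to 0.79 in KO T6, against 0.23 to 0.51 in KO T0, and 0.45 to 0.54 in WT T6, against 0.22 to 0.37 in WT T0. The Actb difference did not overlap between T6 and T0 in either genotype. That of the Gapdh control overlapped in both, at 0.15 to 0.36 in KO T6, against 0.004 to 0.30 in KO T0. In WT it was 0.08 to 0.17 at T6, against 0.04 to 0.09 at T0. The part of these cells and of RNA quality in the rise of Cdkn1a and the falls of Cdkn2d and Ccnd3 was not tested.

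The comparison of genotypes asked whether the 9 genes differed between KO and WT at each time. None was called by limma at T6 or T0, where 0.0988% and 0.038% of all genes were, and none of the 24 probe sets was, where 0.469% and 0.0166% were. At an unadjusted p under 0.05 there were 6 of 9 genes at T6, against 11.8% of all genes, and 2 of 9 at T0, against 9.77%. At T6 the KO arrays lay wholly above the WT arrays for 4 genes (Cdkn1a, Cdkn2c, Cdkn2d and Rb1), as for 10.8% of all genes, and wholly below for 1 (Cdkn1b), as for 8.01%. At T0 they lay wholly above for 2 (Ccnd3 and Rb1), as for 8.12%, and wholly below for 1 (Ccnd2), as for 8.51%. The median log2 difference of the 9 genes was 0.50 at T6, against 0.04 over all genes, and 0.18 at T0, against 0.00. None passed in any of the alternatives at either time.

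**Figure D4:**
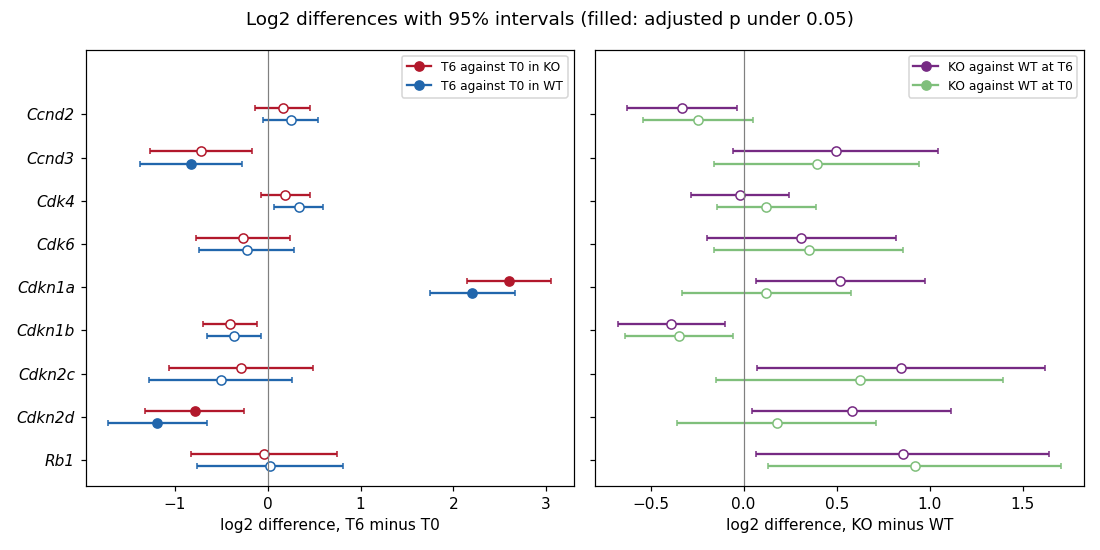
Log2 differences of the 9 genes (points) with 95% intervals (bars) for T6 minus T0 on the left, in KO and WT, and KO minus WT on the right, at T6 and T0; filled points passed an adjusted p of 0.05. Cdkn1a and Cdkn2d are filled in both genotypes and Ccnd3 in WT on the left, and no point is filled on the right.

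Rb1 stood higher in KO than in WT at both times, and neither difference was called. It had signals of 1871, 4710 and 1847 in KO T6 cells, against 1593, 1260 and 1350 in WT T6 cells. At T0 it had 2145, 3976 and 2058 in KO cells, against 1434, 1364 and 1306 in WT cells. Every KO array lay above every WT array, and replicate 2 stood far above the other KO arrays at both times. The log2 difference was 0.86 at T6 (SE 0.35, limma adjusted p = 0.393) and 0.92 at T0 (SE 0.35, adjusted p = 0.468). Without both KO arrays of number 2 it was 0.41 at T6 (adjusted p = 0.281) and 0.61 at T0 (adjusted p = 0.194), so the size rests in part on those arrays. At T6 the Rb1 difference without them was smaller than that of Cdkn1a (0.57).

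The arrays with the highest Rb1 were also those with the highest erythroid markers. Slc4a1, the anion exchanger of red cells, had signals of 3705, 14178 and 1074 in KO T6 cells, against 197.4, 447.2 and 349.0 in WT T6 cells. At T0 it had 5080, 11676 and 1111 in KO cells, against 265.0, 185.8 and 112.6 in WT cells. Klf1, the erythroid transcription factor, had 1037, 6530 and 751.7 in KO T6 cells, against 390.4, 1394 and 663.3 in WT T6 cells. KO T6 replicate 3 had an erythroid mean of 8.98, within the 8.43 to 9.07 of the WT T6 arrays. Its Slc4a1 signal of 1074 and its Rb1 signal of 1847 were both above all of theirs. Its Klf1, Ermap and Alas2 signals of 751.7, 855.6 and 163.8 lay within the range of the WT T6 arrays. All 5 erythroid markers were positive in KO at both times, with medians of 1.25 at T6 and 1.08 at T0, and 0 were called. Their summed signal was 3082 to 34588 in KO T6, against 1914 to 4092 in WT T6, and 5106 to 31092 in KO T0, against 3068 to 7130.5 in WT T0.

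**Figure D5:**
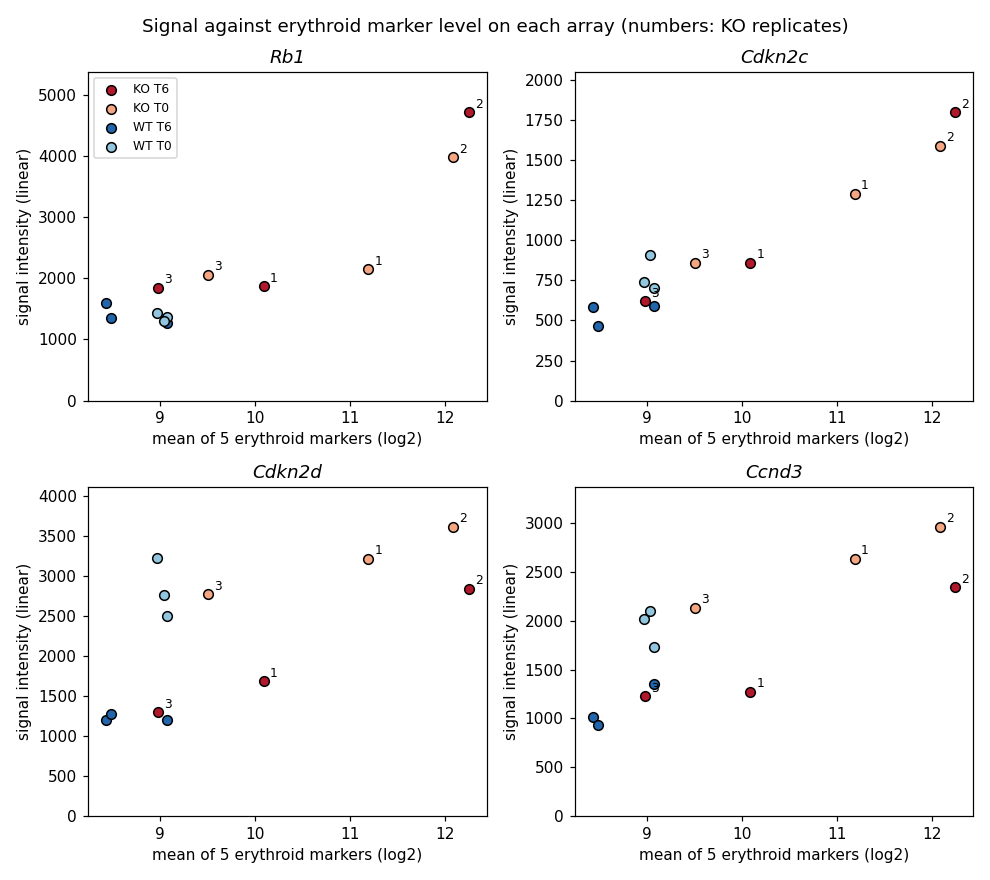
Linear signal intensity (vertical axis, from 0) of Rb1, Cdkn2c, Cdkn2d and Ccnd3 against the mean log2 signal of 5 erythroid markers (horizontal axis) on each of the 12 arrays, coloured by group and with KO replicates numbered. KO replicate 2 lies farthest right at both times (12.25 at T6 and 12.09 at T0) and has the highest Rb1 and Cdkn2c signals.

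Among the INK4 inhibitors, Cdkn2c had signals of 858.3, 1798 and 620.7 in KO T6 cells, against 582.2, 590.5 and 464.9 in WT T6 cells, with no overlap. It differed by 0.84 on the log2 scale (SE 0.35, limma adjusted p = 0.392), and 0.42 (adjusted p = 0.616) without KO T6 replicate 2. At T0 it was 0.62 (SE 0.35, adjusted p = 0.588), with overlap. Cdkn2d, which lies on chromosome 9 as Scap does, had 1683, 2840 and 1295 in KO T6 cells, against 1193, 1202 and 1279 in WT T6 cells. Its difference was 0.58 at T6 (SE 0.24, adjusted p = 0.393) and 0.27 (adjusted p = 0.606) without KO T6 replicate 2. At T0 it was 0.18 (SE 0.24, adjusted p = 0.822). The part of erythroid or proliferating cells in these values and in those of Rb1 was not tested.

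The Cip/Kip inhibitors differed in opposite directions at T6, though neither was called. Cdkn1a had 1195, 1057 and 1173 in KO T6 cells, against 1002, 801.3 and 616.9 in WT T6 cells, a log2 difference of 0.52 (SE 0.20, limma adjusted p = 0.375). It was 0.57 (adjusted p = 0.444) without both KO arrays of number 2, and at T0 it was 0.12 (SE 0.20, adjusted p = 0.864). Cdkn1b had 3313, 3848 and 3461 in KO T6 cells, against 4590, 4633 and 4667 in WT T6 cells, a difference of -0.39 (SE 0.13, adjusted p = 0.301), the lowest adjusted p of the 9 genes at T6. At T0 its difference was -0.35 (SE 0.13, adjusted p = 0.456) and the groups overlapped. Without both KO arrays of number 2 the Cdkn1b differences were -0.45 at T6 and -0.44 at T0. The second probe set of Cdkn1b stood at -0.39 at T6 and -0.12 at T0.

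Ccnd2 stood lower and Ccnd3 higher in KO on the probe sets that represent them, and neither was called. Ccnd2 differed by -0.33 at T6 (SE 0.13, limma adjusted p = 0.386) and by -0.24 at T0 (SE 0.13, adjusted p = 0.58). All 7 of its probe sets were negative at T6, at -0.48 to -0.22, and 5 of 7 were at T0. Ccnd3 differed by 0.50 at T6 (SE 0.25, adjusted p = 0.468) and 0.39 at T0 (SE 0.25, adjusted p = 0.631). Its second probe set pointed the other way, at -0.46 at T6 and -0.16 at T0, so no direction is given for Ccnd3. With the mean of its probe sets the T6 difference was -0.26.

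For the kinases the intervals were narrower for Cdk4 than for Cdk6. Cdk4 differed by -0.02 at T6 (95% interval -0.28 to 0.24) and by 0.12 at T0 (-0.14 to 0.39), with limma adjusted p = 0.961 and 0.747. Cdk6 differed by 0.31 at T6 (-0.20 to 0.82) and by 0.35 at T0 (-0.16 to 0.86), with adjusted p = 0.623 and 0.639. Of the 46 other G1 and S phase genes 0 were called at either time by limma, with medians of 0.19 at T6 and 0.04 at T0. T cell identity genes were negative in 11 of 11 cases at both times, with medians of -0.27 at T6 and -0.23 at T0. B cell markers were positive in 12 of 12 cases at both times, with medians of 1.399 at T6 and 0.709 at T0. Myeloid markers were positive in 11 of 12 cases at both times, with medians of 0.74 at T6 and 0.47 at T0, and Tyrobp was called at T6 (1.68, adjusted p = 0.0483). Proliferation genes were positive in 15 of 16 cases at T6, with a median of 0.75, and in 16 of 16 at T0, with a median of 0.70, and 0 were called. The 3' minus 5' log2 difference of the Actb control was 0.62 to 0.79 in KO T6, against 0.45 to 0.54 in WT T6, and 0.23 to 0.51 in KO T0, against 0.22 to 0.37 in WT T0. That of the Gapdh control overlapped between KO and WT at both times. The part of these cells and of RNA quality in the genotype differences was not tested.

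The interaction asked whether the activation change differed between KO and WT. None of the 9 genes was called by limma (adjusted p = 0.9997 for each, where 0% of all genes were called), 0 of 9 had an unadjusted p under 0.05, against 4.59% of all genes, and none of the 24 probe sets was called, where 0.00332% were. The largest differences were those of Cdkn2d, 0.40 (95% interval -0.36 to 1.16), and Cdkn1a, 0.40 (-0.25 to 1.04). For Cdkn1b it was -0.04 (-0.45 to 0.37) and for Rb1 -0.06 (-1.18 to 1.049). On the probe set that represents Ccnd3, its fall was called in WT and not in KO, and differed by 0.10 between genotypes (-0.68 to 0.88). The second Ccnd3 probe set, called lower in both genotypes, differed by -0.30 (SE 0.26), so the sign depends on the probe set.

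The genes whose log2 signals over the 12 arrays ran most like those of a member were listed as a description, by Pearson's r. Nearest to Cdkn1a were Mir22hg (r = 0.99), Srxn1 and Smim3 (0.98 each). Nearest to Rb1 was Sptb (r = 0.96), the beta spectrin gene of red cells, then Lpcat1 and Mgll. Nearest to Cdkn2c were Gcnt1 (r = 0.98), E2f2, an E2F factor gene (0.97), and Gpx1. Tubb5 was among the 3 nearest to both Ccnd3 and Cdkn2d (r = 0.97 for each). Nearest to Cdkn1b was Birc6 (r = 0.97), to Ccnd2 Elk4 (0.97), to Cdk4 Gpatch8 (0.94) and to Cdk6 Adgrl2 (0.95). These arrays share groups, genotype and the erythroid level described above.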

How the data were processed

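Gene expression was measured on 12 arrays. The authors deposited 1 linear signal intensity per probe set, made with GCOS per the submitters' processing notes. Its version, background step and probe summary are not given in the sources used here. From 45101 probe sets 64 controls were left out, 34945 carried 1 gene symbol, 932 several and 9160 none. Symbols were updated through RefSeq (GRCm38.p6). Signals were taken as log2(signal + 16), which understates changes of dim genes. The brightest probe set on average stood for each gene, which was tested if above percentile 40 of the array on at least 3 arrays (13158 genes). In a second fit each probe set was tested apart (30083). Both used limma 3.58.1 in R 4.3.3, with a coefficient per group and 1 spread shared by the 4 groups, two-sided. Errors are SE of the fit and n = 3 arrays a group, whose number limits the precision. The code was tested on simulated data. All members are named, with up to 4 called genes of the G1 list in each contrast, chosen by smallest p. Members and lists were chosen with earlier results of these data known. Alternatives changed the added constant, normalization, filter, probe sets per gene, groups fitted, replicate block, arrays and chromosome 9 genes.

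Labels do not say whether arrays of a number share a mouse. As deviations from their groups, T6 and T0 arrays of 1 number correlated over genes at 0.18, 0.46 and 0.38 in KO and at 0.23, -0.06 and -0.11 in WT, so the main test does not pair them.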

Additional observations from a re-analysis of the deposited data

How the results depend on the processing

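Of the counts of genes called among the 9, those for KO against WT at T6 and T0 and for the interaction were 0 under each alternative. For T6 against T0 in KO the count of 2 was 4 with log2(signal + 64), with the filter at percentile 60, with probe sets averaged per gene and with a random replicate block, and 1 with median centring, no filter, a separate fit or chromosome 9 genes left out, which removes Cdkn2d itself. Leaving out 1 array gave 1 to 4, with 4 without KO T6 replicate 2. In WT the count of 3 was 5 with the filter at percentile 60 and with a random replicate block, and 2 to 3 with 1 array left out. With a fixed block for replicate number the counts were 3 in KO, where Cdkn1b passed, and 3 in WT. KO arrays correlated best with their own number and WT arrays did so in 1 of 3 cases for T6. Of the 24 probe sets, the 4 called in KO became 7 with the filter at percentile 60 or a random replicate block and 3 to 6 with 1 array left out. The 6 called in WT became 3 with no filter and 3 to 8 with 1 array left out, 3 without WT T6 replicate 1 or WT T0 replicate 3 and 8 without KO T6 replicate 2. The alternatives for probe sets were chosen after seeing the data. Over all genes, the number called ranged from 0 to 33 for KO against WT at T6 (13 as reported), 0 to 10 at T0 (5 as reported), 1916 to 3339 for activation in KO (2746 as reported), 2383 to 3979 in WT (3302 as reported) and 0 to 1 for the interaction. Median centring moved the median change of all genes on activation in WT to 0.05, against -0.06, and the split to 1907 rises and 1141 falls, against 1492 and 1810, and it kept the signs of Cdkn1a, Cdkn2d and Ccnd3. Of the single-gene results 0 called values changed sign, 23 passed the threshold only under the alternative and 21 failed only there. The cause was not tested.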
